A study of Mus musculus with 6 samples.

Results

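The genes described here are 9 members of the SLAM (signaling lymphocytic activation molecule) family and its adaptors, read from a table of 57126 mouse genes by their symbols. They are the receptor genes *Slamf1*, *Slamf6*, *Slamf7*, *Ly9*, *Cd84*, *Cd244a*, and *Cd48* and the adaptor genes *Sh2d1a* and *Sh2d2a*. RNA was sequenced from 6 samples of CD8+ T cells of OT-I mice, whose T cells carry a transgenic receptor for an ovalbumin peptide. All cells were isolated from lymph nodes and spleens, stimulated with nano-aAPCs, which are nanoparticles that present the peptide together with anti-CD28, and harvested on day 6. The 3 TEff samples were expanded with IL-2, and the 3 TRM-like samples with TGF-β and IL-15 added to IL-2, so that the effects of these added cytokines cannot be told apart. The study's methods give the IL-2 as mouse for the sequenced cultures and as human for expansion in general. The labels do not say whether the replicates came from separate animals or cultures, and p-values then measure only the spread between these samples. As the RNA is from bulk culture, fewer cells that express a gene and less RNA per cell cannot be told apart.

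SLAM family receptors sit on the surface of lymphocytes and other blood cells, and most of them bind the same molecule on a neighboring cell. CD244 is the exception, since its ligand is CD48, a family member that is anchored to the membrane by lipid and has no cytoplasmic tail. The tails of the other receptors carry tyrosine switch motifs that recruit the adaptor SAP, encoded by *Sh2d1a*, or the adaptor EAT-2, and SAP in turn brings the kinase FYN. When these adaptors are missing, the same motifs can bind the phosphatases SHP-1, SHP-2, and SHIP-1. In CD8+ T cells, SLAMF6 is widely used as a surface marker of cells that keep self-renewal, and CD244 is known from effector-memory and exhausted cells. *Sh2d2a* encodes TSAd, an adaptor that binds LCK and belongs to a different SH2 protein group than SAP and EAT-2, so the EAT-2 genes *Sh2d1b1* and *Sh2d1b2* were also read out.

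Between 18319013 and 23622621 reads were counted on genes in each sample. TRM-like replicate 3 stood apart from its group. A chi-square of the counts of each pair of samples was divided by the number of genes, 14822 with 10 or more counts in all samples, so that a value near 1 marks pairs that differ by counting noise alone. It was 7.26 between TRM-like replicates 1 and 2. It was 96.3 and 111.7 between TRM-like replicate 3 and those samples, and 37.4 to 82.4 between TRM-like replicate 3 and the TEff samples. Genes with a count numbered 35130 and 35559 in TRM-like replicates 1 and 2, compared with 24229 to 24908 elsewhere. TEff replicate 2 also differed from the rest of its group, by less, with 26.1 and 25.4 to TEff replicates 1 and 3, compared with 3.73 between those. All 6 T cell markers (*Cd3d*, *Cd3e*, *Cd3g*, *Cd8a*, *Cd8b1*, and *Trac*) were detected, with a summed level of 2013 to 2154 CPM (counts scaled to a common library size) in the TEff cells and 2579 to 3713 CPM in the TRM-like cells. The summed markers of B cells were at 6.72 to 8.20 and 7.29 to 11.3 CPM, those of myeloid cells at 8.28 to 13.7 and 3.37 to 8.81 CPM, and those of CD4+ T cells at 0.718 to 1.21 and 0.917 to 1.57 CPM, respectively. The B cell sum was mostly *Cd79b*, at 4.57 to 5.36 CPM in the TEff samples and 6.41 to 8.39 CPM in the TRM-like samples (log2 fold change 0.53, edgeR adjusted p = 0.226, and 0.59 with an edgeR adjusted p of 0.0290 without TRM-like replicate 3). *Cd79a* reached 2.02 CPM, and *Ms4a1* and *Pax5* were under 1 CPM in every sample. The part of these genes in the results was not tested. The 4 platelet markers summed to at most 0.995 CPM in any sample.

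Of the 9 SLAM genes, 4 fell and 2 rose in the TRM-like cells, and 3 did not pass the test. A gene was called when edgeR's quasi-likelihood test, adjusted over the 26154 genes tested by the Benjamini-Hochberg method, gave an adjusted p below 0.05 and the log2 fold change was above 0.58 in size. Among all genes tested, 3.01% were called, 1.48% as lower and 1.52% as higher. The lower genes were *Slamf6*, *Slamf1*, *Cd84*, and *Ly9*, and the higher genes were *Cd244a* and *Slamf7*. The 3 genes not past the test were *Cd48*, *Sh2d1a*, and *Sh2d2a*. In CPM, 5 members had every TRM-like sample below every TEff sample and 2 had every TRM-like sample above, where 9.71% and 10.6% of all genes tested did so, 20.3% together. All 9 members had at least 10 counts in every sample, as did 14822 of the 26154 genes tested, so the background shares include many genes with fewer counts. In a fit of those 14822 genes alone, 579 were called, and again 4 members were lower and 2 higher. Without TRM-like replicate 3, 5 members were lower and 2 higher, against a background of 14% of genes called, 7.67% as lower and 6.38% as higher.

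**Figure D1:**
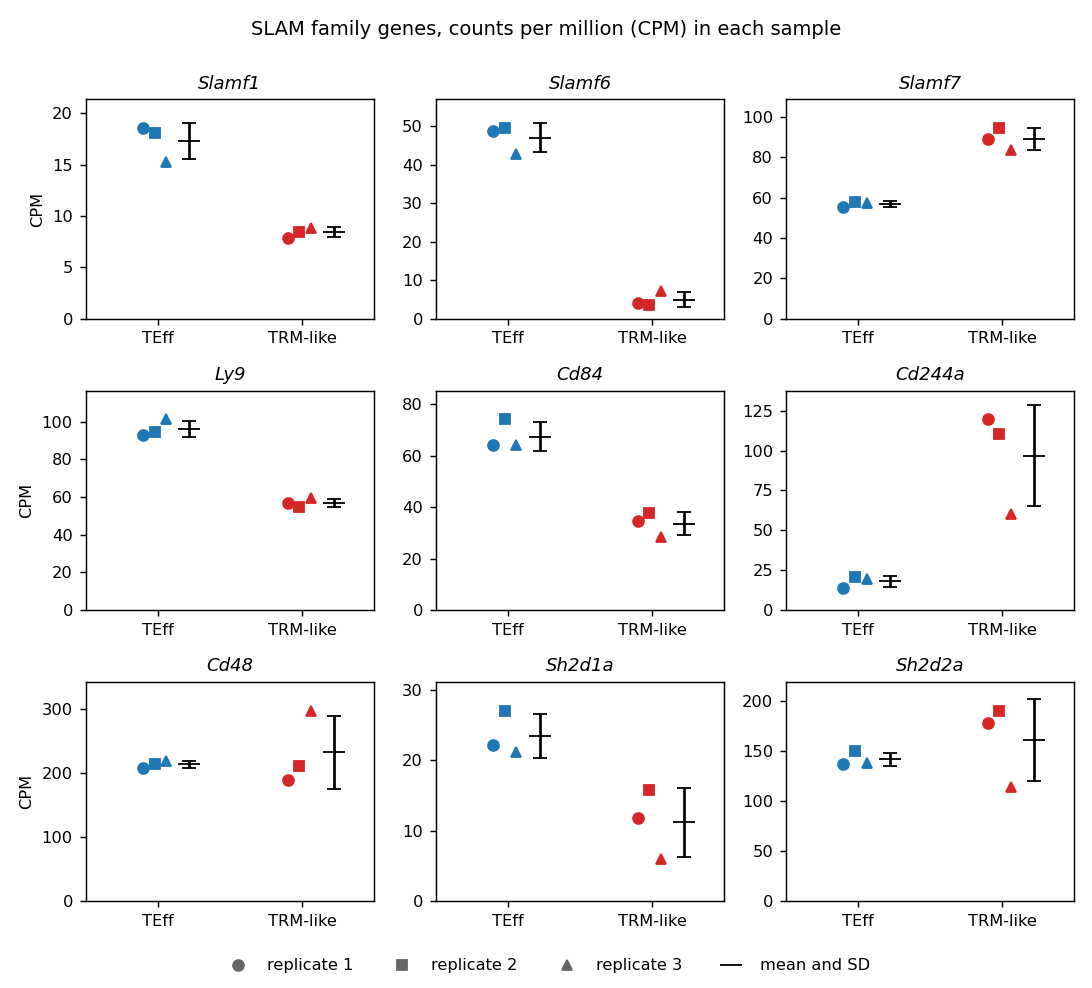
CPM (vertical axes, from 0, a scale for each gene) of the 9 SLAM genes in each TEff (blue) and TRM-like (red) sample, with the replicate given by the symbol shape and the mean and SD over 3 samples in black. *Slamf6* falls from 42.7 to 49.5 CPM in the TEff samples to 3.54 to 7.15 CPM, and TRM-like replicate 3 lies away from replicates 1 and 2 for *Cd244a*, *Cd48*, *Sh2d1a*, and *Sh2d2a*.

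*Slamf6* (ENSMUSG00000015314, chromosome 1 of GRCm39, 171745057 to 171780737), which encodes the receptor also called Ly108, showed the largest difference among the 9 genes. It was at 48.8, 49.5, and 42.7 CPM in TEff replicates 1, 2, and 3 and at 3.97, 3.54, and 7.15 CPM in TRM-like replicates 1, 2, and 3. Every TRM-like sample was far below every TEff sample, and TRM-like replicate 3 was the highest of its group. The log2 fold change was -3.27 (standard error 0.26, edgeR adjusted p = 0.000348), which is a level 9.62-fold lower in the TRM-like cells. Without TRM-like replicate 3 it was -3.65 (edgeR adjusted p = 3.22e-09), and with each other sample left out in turn it stayed past the threshold. These values rest on 81 to 155 counts per TRM-like sample and 772 to 1067 counts per TEff sample. In the annotation used here, *Slamf6* shares 295 exon bases with the noncoding gene *Gm37065* on the other strand, whose values are at most 1.60 CPM. Whether these bases lie in the exons that were counted is not known.

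The promoters of *Slamf6* and *Cd244a*, the receptor genes with the largest change in each direction, are shown as the reference sequence from 250 bases before to 50 bases after the start of the main transcript, 5′ to 3′ on the strand of the gene. They were read from GRCm39 at chr1:171744807-171745106 for *Slamf6* and chr1:171386493-171386792 for *Cd244a*, both on the plus strand. Capitals mark the SMAD letters GTCT, which read AGAC where they lie on the other strand.
Slamf6: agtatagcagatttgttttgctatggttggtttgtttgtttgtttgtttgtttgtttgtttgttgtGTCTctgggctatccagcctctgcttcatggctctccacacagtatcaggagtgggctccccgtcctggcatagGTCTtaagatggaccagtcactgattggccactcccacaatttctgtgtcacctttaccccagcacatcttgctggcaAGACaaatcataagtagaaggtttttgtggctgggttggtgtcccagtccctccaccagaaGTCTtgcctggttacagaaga
Cd244a: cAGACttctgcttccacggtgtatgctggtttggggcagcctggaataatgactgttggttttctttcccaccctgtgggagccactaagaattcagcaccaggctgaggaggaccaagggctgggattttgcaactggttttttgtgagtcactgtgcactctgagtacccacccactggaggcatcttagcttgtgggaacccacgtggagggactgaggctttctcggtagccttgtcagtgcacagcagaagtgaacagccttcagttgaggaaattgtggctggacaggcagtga
The SMAD letters occurred 4 times in the *Slamf6* promoter and 1 time in the *Cd244a* promoter. Such a short word is common, and 88.3% of 21770 promoters of protein-coding genes with the same length held it on one or the other strand, as did the promoters of all 9 members. The RUNX letters TGTGGT were found in 4 of the 9 promoters (*Ly9*, *Cd84*, *Cd48*, and *Sh2d1a*) and in 15.3% of all promoters. The T-box letters TCACACC were found in the *Cd48* promoter, where they overlap the RUNX letters, and in 3.87% of all promoters. A match of letters describes the sequence and does not show that a factor binds.

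*Slamf1*, *Cd84*, and *Ly9* also fell, by 2.06-fold, 2.01-fold, and 1.69-fold. *Slamf1* (ENSMUSG00000015316, chromosome 1, 171594695 to 171628764), which encodes CD150, was at 18.6, 18.1, and 15.3 CPM in the TEff samples and 7.89, 8.48, and 8.85 CPM in the TRM-like samples. The groups were well apart, and the 3 TRM-like samples were close to one another. Its log2 fold change was -1.04 (standard error 0.15, edgeR adjusted p = 0.00643), and without TEff replicate 1 the gene missed the threshold at -0.98 (edgeR adjusted p = 0.0649). It was -1.09 without TRM-like replicate 3 (edgeR adjusted p = 0.000143). *Cd84* (ENSMUSG00000038147, chromosome 1, 171667263 to 171720036), a receptor of T cells, B cells, and platelets, was at 64.3, 74.1, and 64.0 CPM in the TEff samples and 34.6, 37.6, and 28.6 CPM in the TRM-like samples. Its log2 fold change was -1.01 (standard error 0.15, edgeR adjusted p = 0.00680). All TRM-like values of *Cd84* lay below the TEff values, and the gene stayed past the threshold with any single sample left out, between -1.10 and -0.91.

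*Ly9* (ENSMUSG00000004707, chromosome 1, 171416173 to 171434978), which encodes CD229, was at 93.0, 94.2, and 101 CPM in the TEff samples and at 56.7, 54.7, and 59.2 CPM in the TRM-like samples. Its values were narrow within each group, and TRM-like replicate 3 did not stand apart. The log2 fold change was -0.76 (standard error 0.12, edgeR adjusted p = 0.0102). The call did not hold without TEff replicate 1 (edgeR adjusted p = 0.0728), TEff replicate 3 (edgeR adjusted p = 0.0892), TRM-like replicate 1 (edgeR adjusted p = 0.0576), or TRM-like replicate 2 (edgeR adjusted p = 0.0566), although the log2 fold change stayed between -0.80 and -0.70.

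*Cd244a* (ENSMUSG00000004709, chromosome 1, 171386708 to 171437315), which encodes the receptor CD244 or 2B4, rose the most. It was at 14.1, 20.8, and 19.5 CPM in the TEff samples and at 120, 110, and 60.5 CPM in the TRM-like samples. Every TRM-like sample was above every TEff sample, and TRM-like replicate 3 was well below the other TRM-like samples. The log2 fold change was 2.42 (standard error 0.27, edgeR adjusted p = 0.00198), a 5.34-fold higher level, and without TRM-like replicate 3 it was 2.66 (edgeR adjusted p = 5.51e-08). It remained past the threshold with each other sample left out. *Cd244a* and *Ly9* lie on opposite strands and their gene bodies overlap over 18806 bases in the annotation used here, but they share 0 exon bases.

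*Slamf7* (ENSMUSG00000038179, chromosome 1, 171459966 to 171480603), which encodes a receptor that signals through EAT-2, was at 55.4, 57.8, and 57.6 CPM in the TEff samples and 89.3, 94.5, and 83.8 CPM in the TRM-like samples. Each TRM-like sample was above all TEff samples. The gene shares 423 annotated exon bases with the noncoding gene *Gm37787* on the other strand, which was at most at 0.699 CPM. *Slamf7* had a log2 fold change of 0.65 (standard error 0.12, edgeR adjusted p = 0.0218), not far above the fold threshold. Without TRM-like replicate 3 it was 0.68 (edgeR adjusted p = 0.000390). The gene missed the threshold without TEff replicate 1 (edgeR adjusted p = 0.161), TEff replicate 2 (0.0819), TEff replicate 3 (0.132), TRM-like replicate 1 (0.0938), or TRM-like replicate 2 (0.0995), and its log2 fold change in those fits was 0.60 to 0.67.

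*Cd48* (ENSMUSG00000015355, chromosome 1, 171509573 to 171532826), the ligand of CD244, did not pass the test while the receptor gene rose. It was at 208, 215, and 219 CPM in the TEff samples and at 190, 211, and 297 CPM in the TRM-like samples. The groups overlapped, and TRM-like replicate 3 had the highest value of all 6 samples. *Cd48* had a log2 fold change of 0.12 (95% interval -0.28 to 0.53, edgeR adjusted p = 0.813), and without TRM-like replicate 3 its sign turned, to -0.10 (edgeR adjusted p = 0.542).

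*Sh2d1a* (ENSMUSG00000005696, chromosome X, 41591330 to 41618207), the gene of SAP, was at 22.2, 27.0, and 21.2 CPM in the TEff samples and at 11.9, 15.8, and 6.04 CPM in the TRM-like samples. The TRM-like values were all below the TEff values, but they spread over a wide range with TRM-like replicate 3 as the lowest. In the annotation used here, *Sh2d1a* shares 1465 exon bases with *Tenm1* on the other strand, which was at most at 1.82 CPM in any sample. The counted length of *Sh2d1a* was 1523 bases, against 5870 exon bases in this annotation. The shared bases may thus lie outside the counted exons. At -1.06 (standard error 0.30, 95% interval -1.74 to -0.39), the log2 fold change of *Sh2d1a* missed the threshold (edgeR adjusted p = 0.115). Without TRM-like replicate 3 the change was smaller, at -0.78, and past the threshold (edgeR adjusted p = 0.00295). *Sh2d2a* (ENSMUSG00000028071, chromosome 3, 87754062 to 87763111), the gene of TSAd, was at 137, 149, and 138 CPM in the TEff samples and at 178, 190, and 114 CPM in the TRM-like samples. Replicates 1 and 2 of the TRM-like cells were above the TEff samples and replicate 3 was below them. *Sh2d2a* had a log2 fold change of 0.18 (95% interval -0.25 to 0.62, edgeR adjusted p = 0.729), and without TRM-like replicate 3 it was 0.37 (edgeR adjusted p = 0.0224), below the fold threshold.

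The EAT-2 gene *Sh2d1b1* (ENSMUSG00000102418, chromosome 1, 170104824 to 170114338) was detected in TRM-like replicates 1 and 2, with 121 and 159 counts, and had 2 counts in TRM-like replicate 3. The TEff samples had 4, 7, and 2 counts. In CPM these are 5.28, 6.95, and 0.0922 in the TRM-like samples and 0.183, 0.354, and 0.111 in the TEff samples. TRM-like replicate 3 was thus at the level of the TEff cells for this adaptor. Its log2 fold change, 4.21 with a standard error of 1.14, missed the threshold (edgeR adjusted p = 0.103), and without TRM-like replicate 3 it was 4.76 (edgeR adjusted p = 5.48e-07). The call depended on the tool, with 4.26 past the threshold in DESeq2 (adjusted p = 0.0420) and 2.91 not past it in limma-voom (adjusted p = 0.570). *Sh2d1b2*, the neighboring copy of the gene, had 10 and 11 counts in TRM-like replicates 1 and 2 and at most 2 counts in each other sample (log2 fold change 2.23, edgeR adjusted p = 0.296, and 2.66 with an edgeR adjusted p of 0.0253 without TRM-like replicate 3). The copies are similar in sequence, so how their reads were split is uncertain. TRM-like replicates 1 and 2 also had a count for more genes than the other samples (35130 and 35559 against 24229 to 24908). *Pax5*, a B cell marker, had 14 and 10 counts in these 2 samples and 0 counts in each other sample. The myeloid marker *Adgre1* had 5 and 6 counts in these samples and at most 1 count in each other sample. *Csf1r*, another myeloid marker, had 11 and 10 counts in these samples and 1 to 7 counts in the others. Other low markers, such as *Itgam* and *Cd14*, did not have this pattern. Whether the low *Sh2d1b2* counts share a source with such genes was not tested. EAT-2 is best known from natural killer cells. The summed markers of those cells (*Ncr1*, *Klrb1c*, and *Klra8*) were at 8.94 and 7.03 CPM in TRM-like replicates 1 and 2, at 0.0922 CPM in TRM-like replicate 3, and at 9.83 to 22.0 CPM in the TEff samples. The defining marker *Ncr1* and *Klra8* were under 1 CPM in every sample, so that *Klrb1c* made up nearly all of this sum. *Ncr1* had 5 and 6 counts in TRM-like replicates 1 and 2, and *Klra8* had 4 and 2. Both had 0 counts in TRM-like replicate 3 and at most 1 count in each TEff sample. Their direction was thus that of *Sh2d1b1*, and that of *Klrb1c* was the opposite. The part of these markers in the *Sh2d1b1* result was not tested. The remaining receptor genes of the family, *Slamf8* and *Slamf9*, had 1 and 3 counts in the whole series and were not tested.

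**Figure D2:**
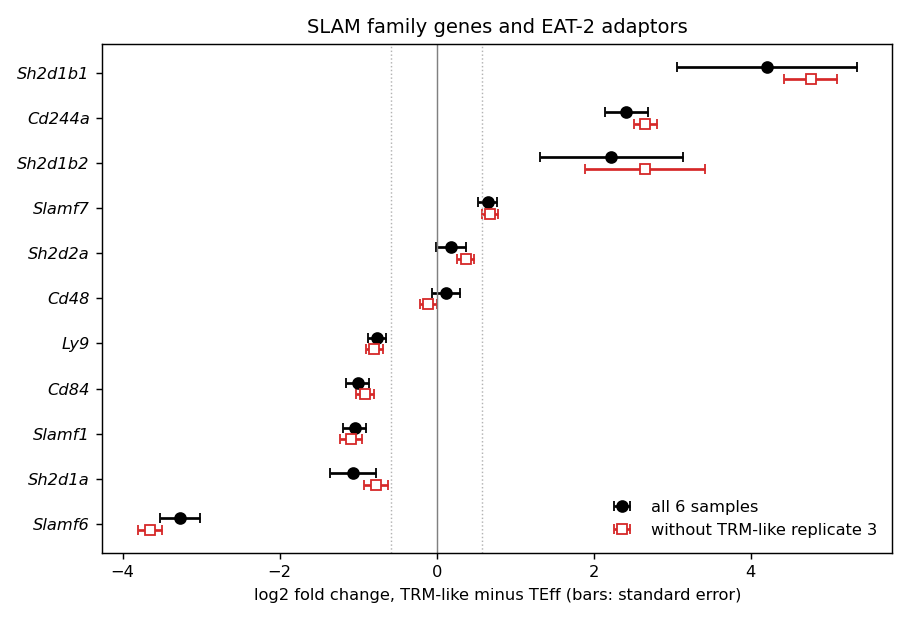
Log2 fold change (horizontal axis, TRM-like minus TEff, with standard error bars) of the 9 SLAM genes and the 2 EAT-2 genes with all 6 samples (black) and without TRM-like replicate 3 (red), with dotted lines at the fold threshold of 0.58 in either direction. *Slamf6* lies lowest at -3.27, *Sh2d1b1* highest at 4.21 with the widest error among these genes, and *Cd48* is the gene whose sign turns without TRM-like replicate 3.

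To compare levels between genes, CPM was divided by the gene length in the table, in kilobases. In the TEff cells, *Cd48* was highest at 180 ± 4.84 CPM per kb (SD, n = 3), followed by *Ly9* (35.1 ± 1.60), *Sh2d2a* (29.8 ± 1.43), *Sh2d1a* (15.4 ± 2.04), *Slamf7* (12.4 ± 0.285), and *Cd84* (10.8 ± 0.916). *Slamf6* (6.65 ± 0.530), *Slamf1* (6.44 ± 0.656), and *Cd244a* (4.82 ± 0.937) were the lowest. The ranges of *Slamf6* and *Slamf1* overlapped, and all other neighbors in this order were separated over the samples. The order also depends on the gene length used. It was 1523 bases for *Sh2d1a* and 2693 for *Slamf1*, against 5870 and 6168 exon bases in the later annotation. For *Slamf7* the lengths were close, at 4577 and 4587 bases. In the TRM-like cells, *Cd48* was again highest at 196 ± 47.9 CPM per kb, and *Slamf6* was lowest at 0.692 ± 0.279. *Cd244a*, the last in the TEff order, was in the third place at 25.8 ± 8.47 CPM per kb, although its range overlapped those of *Sh2d2a* above it and *Ly9* below it. *Ly9* (20.8 ± 0.818) and *Slamf7* (19.5 ± 1.17) overlapped as well, as did *Sh2d1a* (7.37 ± 3.21) and *Cd84* (5.36 ± 0.731).

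The summed level of the 6 receptors other than *Cd48* overlapped between the groups. The sum was 73.9, 78.1, and 76.6 CPM per kb in the TEff samples and 81.0, 79.7, and 64.9 CPM per kb in the TRM-like samples. *Ly9* made up 46.1% ± 2.07 of this sum in the TEff cells and 28.0% ± 4.63 in the TRM-like cells (SD, n = 3). *Cd244a* made up 6.31% ± 1.07 in the TEff cells and 39.2%, 36.9%, and 24.8% in TRM-like replicates 1, 2, and 3. *Slamf7* took 16.3% ± 0.140 and 26.1% ± 2.07, and *Slamf6* took 8.73% ± 0.761 and 0.961% ± 0.520, respectively. These 6 genes are the called members, so shares that differ between the groups follow from the gene values above. The shares also depend on the gene lengths used and were not tested. *Cd48*, left out here, made up 70.2% ± 0.398 of the summed level of all 7 receptors in the TEff cells. In the TRM-like cells it made up 71.6% ± 6.90.

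**Figure D3:**
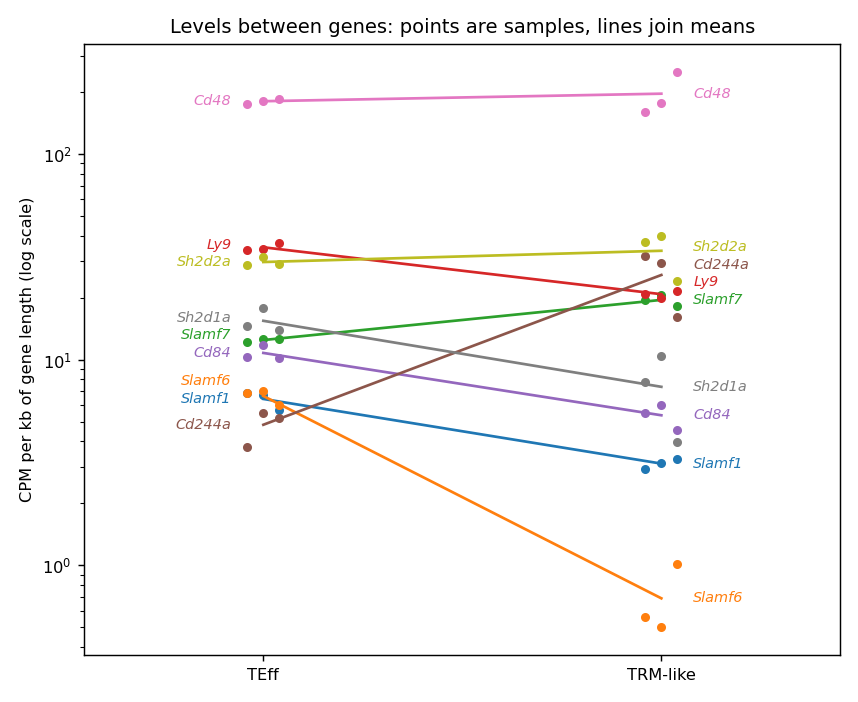
Level per gene length (vertical axis, CPM per kb, log scale) of the 9 SLAM genes in the TEff and TRM-like cells, with a point for each sample, in the order of replicates 1 to 3 from left to right, and lines joining the group means. *Cd48* is highest in both groups, *Cd244a* moves from 4.82 to 25.8 CPM per kb and *Slamf6* from 6.65 to 0.692 CPM per kb.

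All 7 receptor genes lie together on chromosome 1, in a span of 394 kb from *Cd244a* to *Slamf6* with no other annotated protein-coding gene of the table between them. *Ly9* lies wholly within the bounds of *Cd244a*, on the other strand. Genes that rose and genes that fell lie next to each other within this span. In the order of their first bases along the chromosome, *Cd244a* rose, *Ly9* fell, *Slamf7* rose, *Cd48* did not pass the test, and *Slamf1*, *Cd84*, and *Slamf6* fell. Of the 6 nearest tested protein-coding genes outside the span, 3 on either side, 0 were called by edgeR, DESeq2, or limma-voom, against 3.01% of all genes tested by edgeR, and 1 had an unadjusted edgeR p under 0.05. With 6 genes and this background, a count of 0 does not set the neighbors apart from other genes. *Ncstn*, a subunit of γ-secretase, was at 52.7 ± 0.552 CPM in the TEff cells and 45.8 ± 3.30 CPM in the TRM-like cells (SD, n = 3, log2 fold change -0.20, edgeR adjusted p = 0.499). *Copa*, a coat protein of transport vesicles, was at 266 ± 20.5 and 257 ± 21.3 CPM (log2 fold change -0.05, edgeR adjusted p = 0.908). *Alyref2* was at 2.16 to 2.48 CPM in the TEff samples and at 5.36, 5.50, and 2.40 CPM in the TRM-like samples, where replicate 3 was again at the TEff level (log2 fold change 0.95, edgeR adjusted p = 0.204, and 1.23 with an edgeR adjusted p of 0.000555 without TRM-like replicate 3). It was also past the threshold when no filter on low counts was used (0.94, edgeR adjusted p = 0.0209). *Tstd1*, *F11r*, and *Vangl2* were low, at no more than 1.47 CPM in any sample.

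**Figure D4:**
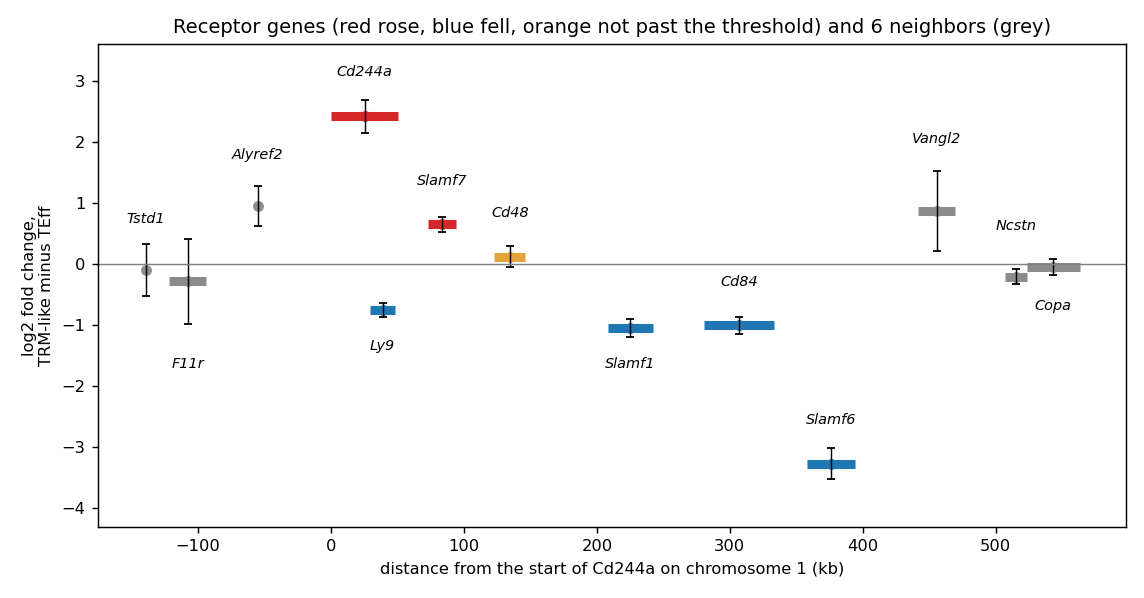
Log2 fold change (vertical axis, TRM-like minus TEff, with standard error bars) of the 7 receptor genes and their 6 nearest tested protein-coding neighbors against the distance from the start of *Cd244a* (horizontal axis, kb). Horizontal bars span each gene (red rose, blue fell, orange did not pass the test, grey neighbors), short genes appear as a point, and the receptors range from 2.42 for *Cd244a* at the left end to -3.27 for *Slamf6* at the right end.

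The signaling partners of the family were read out from a list of 24 genes, which all passed the filter on low counts. Of these, 3 rose (*Inpp5d*, *Dok1*, and *Fyn*), 1 fell (*Dok2*), and 20 did not pass the test, so that 16.7% were called against 3.01% of all genes tested. All 24 had at least 10 counts in every sample, which many of all genes tested did not. In the fit of the 14822 genes with such counts, 579 were called, and again 3 partners rose and 1 fell. Without TRM-like replicate 3, 3 rose and 2 fell of the 24, against 14% of all genes, so that the list lay closer to the background. The median log2 fold change was 0.07 for the list and 0.02 for all genes tested. *Fyn*, the kinase that SAP recruits, was at 99.6, 128, and 103 CPM in the TEff samples and 203, 214, and 163 CPM in the TRM-like samples. Its log2 fold change was 0.81 (standard error 0.16, edgeR adjusted p = 0.0313). The *Fyn* values did not overlap between the groups, but with 1 sample left out the call held solely without TRM-like replicate 3 (0.91, edgeR adjusted p = 0.000171). Without TEff replicates 1, 2, and 3 the adjusted p from edgeR was 0.201, 0.0556, and 0.190, and without TRM-like replicates 1 and 2 it was 0.113 and 0.125.

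*Inpp5d*, which encodes the lipid phosphatase SHIP-1, was at 134, 119, and 124 CPM in the TEff samples and at 247, 247, and 227 CPM in the TRM-like samples. TRM-like replicate 3 was here close to the rest of its group. *Inpp5d* had a log2 fold change of 0.93 (standard error 0.13, edgeR adjusted p = 0.00487), and the call was lost without TEff replicate 3 (0.94, edgeR adjusted p = 0.0521) and kept without TRM-like replicate 3 (0.96, edgeR adjusted p = 3.006e-05). The phosphatase genes *Ptpn6* (SHP-1, log2 fold change 0.17, 95% interval -0.14 to 0.49, edgeR adjusted p = 0.627) and *Ptpn11* (SHP-2, log2 fold change -0.13, 95% interval -0.54 to 0.29, edgeR adjusted p = 0.813) did not pass the test. Without TRM-like replicate 3, *Ptpn6* was at 0.24 (edgeR adjusted p = 0.130), and *Ptpn11* was at -0.37 with an edgeR adjusted p of 0.0235, below the fold threshold. *Ptpn11* was at 73.6 to 80.8 CPM in the TEff samples, at 60.4 and 59.2 CPM in TRM-like replicates 1 and 2, and at 92.2 CPM in TRM-like replicate 3.

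The adaptor genes *Dok1* and *Dok2*, whose proteins restrain receptor signaling, moved in opposite directions. *Dok1* was at 26.6, 25.9, and 27.5 CPM in the TEff samples and 57.4, 64.0, and 37.7 CPM in the TRM-like samples (log2 fold change 0.99, standard error 0.19, edgeR adjusted p = 0.0274). The call of *Dok1* did not hold without TEff replicates 1, 2, and 3 (edgeR adjusted p = 0.156, 0.135, and 0.139) or TRM-like replicates 1 and 2 (edgeR adjusted p = 0.0901 and 0.0998), and without TRM-like replicate 3 its log2 fold change was 1.18 (edgeR adjusted p = 6.21e-06). *Dok2* was at 113, 118, and 115 CPM and at 63.4, 64.2, and 52.8 CPM, respectively (log2 fold change -0.94, standard error 0.13, edgeR adjusted p = 0.00557), and narrowly missed the threshold without TEff replicate 3 (edgeR adjusted p = 0.0504). It was -0.86 without TRM-like replicate 3 (edgeR adjusted p = 7.64e-05). *Cd2*, a related adhesion receptor that binds CD48 in mice, was at 267, 290, and 269 CPM in the TEff samples and 183, 196, and 150 CPM in the TRM-like samples. The groups did not overlap, and the log2 fold change of -0.64 (standard error 0.14) was just beyond the p threshold (edgeR adjusted p = 0.0504). *Cd2* was at -0.55 without TRM-like replicate 3 (edgeR adjusted p = 0.00231), below the fold threshold. *Prkcq*, the kinase PKC-θ that acts downstream of SAP and FYN, had a log2 fold change of -0.54 (edgeR adjusted p = 0.0847), and without TRM-like replicate 3 it was past the threshold at -0.64 (edgeR adjusted p = 0.000841).

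**Figure D5:**
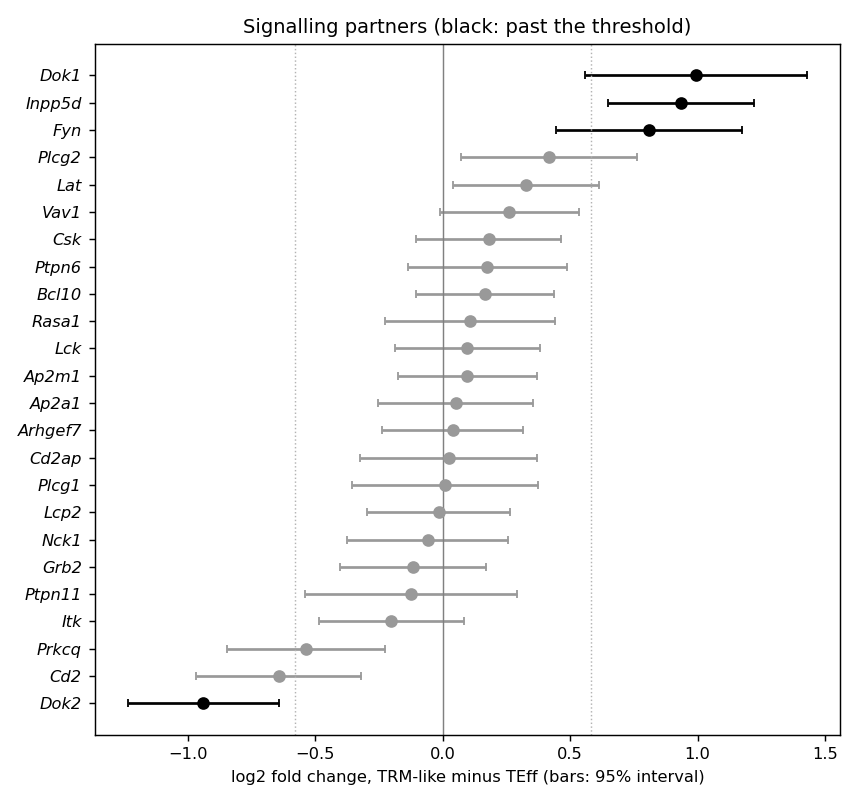
Log2 fold change (horizontal axis, TRM-like minus TEff, with 95% intervals) of the 24 signaling partner genes, with those past the threshold in black and dotted lines at 0.58 in either direction. *Dok1*, *Inpp5d*, and *Fyn* lie at 0.99, 0.93, and 0.81, *Dok2* lies at -0.94, and the other 20 genes lie between -0.64 and 0.42.

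The genes whose levels followed those of the called members most closely over the 6 samples were found by the root mean square difference in log2 CPM, after each gene was centered on its own mean, over the 14821 other genes that had 10 or more counts throughout. A smaller value means a closer pattern, and the genes were found by their likeness, so that their values describe it and are no test. For *Slamf6* they included *Smad3* (a transducer of TGF-β signals, 0.26) and *Myb* (a transcription factor, 0.29). *Smad3* was at 13.9 to 22.8 CPM in the TEff samples and at 1.44, 1.40, and 3.87 CPM in the TRM-like samples, and *Myb* was at 57.9 to 67.3 CPM and at 7.07, 5.72, and 16.3 CPM. As for *Slamf6*, TRM-like replicate 3 was the highest of its group in both. For *Cd244a* the closest genes were *Ly6g5b* (0.13), *Pltp* (0.14), and *Tmem273* (0.16), which shared the lower value of TRM-like replicate 3. *Ly6g5b* was at 58.5, 67.8, and 35.6 CPM in the TRM-like samples and at 9.01 to 11.4 CPM in the TEff samples. For *Slamf1* they were *Rnf125* (0.08), *Hif1a* (0.10), and *St3gal2* (0.11). For *Ly9* they were *Ero1b* (0.05), *Atf6* (0.05), and *Kctd17* (0.05), and for *Slamf7* they were *Extl3* (0.03), *Mtmr12* (0.04), and *Prkacb* (0.04). *Ero1b* encodes an oxidase of the endoplasmic reticulum, and *Atf6* a sensor of unfolded proteins there. For *Cd84* they were *Plxnd1* (0.07), *Eif2ak3* (the unfolded protein sensor PERK, 0.07), and *Dok2* (0.07), the adaptor gene described above.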

How the data were processed

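Samples were grouped by their titles. Libraries were made with a stranded total RNA kit. After trimming with cutadapt 4.8, the authors used Rsubread and GENCODE (GRCm39) to obtain the deposited counts, which are raw and not normalized, and the gene lengths beside them. The strand setting and the counting of reads that map to several places are not given in the sources used here. Symbols and coordinates came from a later GENCODE release of the same build, in which 56620 genes were found and 506 were not. In this later release, the members share exon bases with genes on the other strand in 3 cases, *Slamf6* with *Gm37065* (295 bases), *Slamf7* with *Gm37787* (423), and *Sh2d1a* with *Tenm1* (1465). Such reads cannot be told apart without the strand. The counted lengths were shorter than the exon bases of this release, 7062 against 10871 for *Slamf6*, 4577 against 4587 for *Slamf7*, and 1523 against 5870 for *Sh2d1a*. For *Slamf6* and *Sh2d1a*, the shared bases may thus not all lie in the counted exons. For *Slamf7* the lengths were close, so most of its shared bases are likely to lie in the counted exons.

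A gene was tested if 3 or more samples had 1 count or more. The test was the quasi-likelihood test of edgeR 4.0.16 (R 4.3.3) after TMM scaling, adjusted by the Benjamini-Hochberg method, with all 6 samples and no batch term, since the study's methods do not name the batch they removed. The standard error is the log2 fold change divided by the square root of F. CPM is scaled to the TMM library size, and log2 CPM has a prior count of 2. DESeq2 1.42.0, limma-voom (limma 3.58.1), other normalizations and filters, the adjusted p alone, the replicate number as a block, and each sample left out were the alternatives. The tests were tested on simulated data. The members, gene lists, and alternatives were chosen with earlier results of these data known. The genes named were the members, the EAT-2 genes, the called partner genes with *Fyn*, *Ptpn6*, *Ptpn11*, *Inpp5d*, and *Cd2*, the neighbors of the receptor cluster, and the 3 closest patterns for each called member. Some of the genes so chosen are not reported here. *Prkcq* and *Gm37065* were chosen after their values were seen. Protein sequences were not used here.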

Additional observations from a re-analysis of the deposited data

How the results depend on the processing

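The 4 lower and 2 higher SLAM genes were within 1.5 times of these counts in every alternative of the test, normalization, filter, threshold, or block that was run. With each sample left out in turn, 2 to 5 SLAM genes were lower and 1 to 2 higher. The 2 lower came without TEff replicate 1, and *Slamf7* was lost in each of these fits but that without TRM-like replicate 3. *Slamf6*, *Cd84*, and *Cd244a* were past the threshold in each of the 15 alternatives, and *Slamf1*, *Ly9*, and *Slamf7* in 14, 11, and 10 of them. *Sh2d1a* passed with DESeq2, with no filter, with the replicate block, and without TRM-like replicate 3, and *Sh2d1b1* in the same alternatives. *Alyref2* passed with no filter, with the replicate block, and without TRM-like replicate 3. Lower partner genes numbered 2 rather than 1 with DESeq2, limma-voom, library totals alone, no filter, and the replicate block, where *Cd2* passed, and 0 to 2 with a sample left out. Higher partner genes numbered 0 to 3 with a sample left out, with 3 solely without TRM-like replicate 3. The 0 of both came from edgeR without TEff replicate 3, where 7 partner genes had an unadjusted p under 0.05. The number of all genes called, 786, was 1256 with DESeq2, 1868 with no filter, 2034 with the replicate block, and 263 to 3579 with a sample left out, where the highest value came without TRM-like replicate 3. The cause of these shifts was not tested.

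The correlation of the deviations from the group means of same-numbered samples was -0.292, 0.309, and 0.389 for numbers 1, 2, and 3. As these were not all positive, the numbers were not taken to pair the samples. Deviations within a group of 3 depend on one another, so these correlations cannot decide whether the samples are paired. Whether the numbers follow the batch that the study removed is not known. With the replicate block, 5 SLAM genes were lower and 2 higher, and in a fit chosen after the data were seen, with the block and at least 10 counts in every sample, the numbers were again 5 and 2, with 2 lower partner genes and 903 genes called in all. The sign turned in genes with small changes only: *Tstd1* turned to 0.012 with limma-voom, and with a sample left out the log2 fold changes ranged from -0.10 to 0.25 for *Cd48* (lowest without TRM-like replicate 3), from -0.68 to 0.41 for *F11r*, from -0.32 to 0.46 for *Tstd1*, and from -0.13 to 0.0059 for *Copa*.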

Other observations

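*Gm37065*, a long noncoding RNA gene on the minus strand of chromosome 1 (171737524 to 171748753) that overlaps the first part of *Slamf6*, was chosen after its values were seen. It was at 1.55, 1.52, and 1.60 CPM in the TEff samples and at 0.174, 0.0874, and 0.138 CPM in the TRM-like samples, with no overlap between the groups. Its log2 fold change was -3.49 (standard error 0.39, edgeR adjusted p = 0.00194), beside -3.27 for *Slamf6*, and -3.52 without TRM-like replicate 3 (edgeR adjusted p = 0.000149). The annotations share 295 exon bases on opposite strands, and whether reads of *Slamf6* were counted on *Gm37065* was not tested. *Tenm1*, which shares exon bases with *Sh2d1a* on the other strand, was at 0.884 to 1.82 CPM in the TEff samples and 0.277 to 1.00 CPM in the TRM-like samples, below the 6.04 CPM of the lowest *Sh2d1a* value. How reads on shared bases were counted is not given, so this level sets no limit on them.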
